A study of Mus musculus with 4 samples.

Results

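The IL-6 family genes examined here are 10 genes, matched by symbol among the 54532 genes of the count files: the ligands Il6, Lif, Osm and Il11, the receptor chains Il6ra, Il6st, Osmr and Lifr, the transcription factor gene Stat3 and the feedback inhibitor gene Socs3. They were chosen by name and by no rule on a measured value, though earlier results of these data were known. All 10 passed the filter on low counts, as did 15961 genes in all. RNA was sequenced from MMTV-PyMT mammary tumours labelled Dll1 mcherry+ on the C57BL/6 strain, in which a mammary tumour virus promoter drives the polyoma middle T oncogene in mammary epithelium. Tumours of 1 group were given 6 Gy of targeted radiation (irradiated A and B) and those of the other received none (unirradiated A and B), with 2 libraries each. All 4 libraries carry the same tumour genotype and the label of day 6. In the irradiated libraries, the treatment label places the targeted radiation at day 6. The animals' age, the interval from radiation to collection and whether A and B were separate animals are not stated in the labels. The p-values thus weigh group differences against the spread between libraries alone, largely pooled over genes, and that spread is possibly a technical one.

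The labels give the material as fibroblasts of the tumours, but epithelial marker transcripts far outnumbered fibroblast ones in all 4 libraries. Total counts per library ran from 13011489 to 23763830. Levels are CPM, a library's reads of a gene scaled to a common library size by TMM, and group values are mean ± SD with n = 2 libraries. The 14 fibroblast markers summed to between 594 and 629 CPM in the unirradiated and between 1861 and 1872 CPM in the irradiated libraries, and the 14 epithelial markers to between 9669 and 9690 and between 8789 and 9130 CPM. Of these, 11 fibroblast markers were higher and 1 lower in the irradiated libraries, and 4 epithelial markers higher and 8 lower (7 and 5 with the trend of fold changes on gene length and GC content removed). Pdgfra, among the fibroblast markers, was at 5.59 ± 0.223 and 23.7 ± 1.17 CPM, and Epcam, an epithelial adhesion gene, at 1211 ± 14.1 and 1107 ± 31.1 CPM. Sums went from between 399 and 411 to between 635 and 642 CPM for 16 macrophage and monocyte markers (11 of 14 tested higher, 1 lower) and from between 78.7 and 79.9 to between 186 and 198 CPM for 12 endothelial markers (10 higher, 0 lower). The macrophage gene Adgre1 was at 5.64 ± 1.80 and 22.3 ± 0.269 CPM. The 11 neutrophil markers summed to 76.6 and 69.4 CPM in unirradiated A and B but to 59.5 and 24.4 CPM in irradiated A and B, and the 12 T and NK cell markers to 17.9 and 20.2 against 10.6 and 10.8 CPM. None of these markers was called higher, while 7 of 10 tested neutrophil and 5 of 8 tested T and NK cell markers were lower. Without irradiated B, 2 neutrophil markers were lower, and DESeq2 called 1. Without irradiated A, 2 macrophage markers were lower. Of the marker genes, only the macrophage gene Vsig4 was at 0 counts in both unirradiated libraries and only the NK cell gene Klrb1c in both irradiated ones. Which cells carried the transcripts below, and the part of these shifts in them, was not tested. In such bulk samples, a different number of cells of a type and a different amount of RNA per cell cannot be told apart.

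Cytokines of this family act through receptors that share the chain encoded by Il6st. IL-6 binds the chain encoded by Il6ra and LIF that encoded by Lifr, while oncostatin M in the mouse acts mainly through that encoded by Osmr, and each complex then engages the Il6st product. JAK kinases bound to the receptors phosphorylate STAT3, which moves to the nucleus and switches on target genes, among them Socs3, whose protein binds the receptor and shuts the signal off. In mammary tumours, fibroblasts, macrophages and tumour cells can all make these ligands, and IL-6 is a known product of inflammatory fibroblasts.

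The DNA just upstream of Il6, Lif and Socs3 is shown because Lif was the most abundant ligand transcript, Il6 had the largest fold change and the feedback gene Socs3 was lower. The RefSeq table, on GRCm38.p6, held upstream stretches for 9 of the 10 genes, 11 stretches in all, and none was matched for Osm. Each was searched over 250 bases before the start for a STAT motif (TTCNNNGAA), an AP-1 motif (TGANTCA) and an NF-kB motif, on both strands, and no 2 of the matches in these genes overlapped. Capitals mark the matches, and each stretch is printed 5′ to 3′ on the gene's strand, ending before the first base that GENCODE M21 annotates as an exon of the gene.

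Il6 (chr5:30012864-30013113, plus strand): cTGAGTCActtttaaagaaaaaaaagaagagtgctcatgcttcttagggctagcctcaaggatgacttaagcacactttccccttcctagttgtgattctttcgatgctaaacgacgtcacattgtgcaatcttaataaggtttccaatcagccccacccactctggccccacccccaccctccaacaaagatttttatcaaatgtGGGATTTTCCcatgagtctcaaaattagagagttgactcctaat
Lif (chr11:4257318-4257556, plus strand): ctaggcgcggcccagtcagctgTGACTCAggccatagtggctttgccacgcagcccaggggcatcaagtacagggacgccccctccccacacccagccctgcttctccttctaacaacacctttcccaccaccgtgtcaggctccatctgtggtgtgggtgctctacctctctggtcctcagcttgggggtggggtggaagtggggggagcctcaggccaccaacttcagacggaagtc
Socs3 (chr11:117969452-117969616, minus strand): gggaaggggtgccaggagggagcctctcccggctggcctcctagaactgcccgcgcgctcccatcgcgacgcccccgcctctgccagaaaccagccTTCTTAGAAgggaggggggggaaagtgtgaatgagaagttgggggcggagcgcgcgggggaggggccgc

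Distances are counted from the RefSeq start, which for Lif and Socs3 lies beyond the end of the printed stretch. Upstream of Il6, an AP-1 match began 249 bases and an NF-kB match 44 bases before the start. Lif had an AP-1 match beginning 228 bases before its RefSeq start, and the stretch of Il11 that ends at its inner start had an AP-1 match beginning 98 bases before it. Socs3 had the only STAT match among these genes, beginning 154 bases before its RefSeq start, which lies inside the longer span that the count files give the gene. Such matches are not rare. Of 32851 upstream stretches in the table, 7.02% held the STAT, 6.75% the AP-1 and 3.90% the NF-kB motif. A match is a run of letters, not a shown binding site, and no binding was measured.

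The comparison asked how the family's transcripts differed between irradiated and unirradiated tumours. With p-values from edgeR's quasi-likelihood F-test, adjusted by Benjamini and Hochberg's method over all 15961 genes, 8 of the 10 genes were higher (Il6, Lif, Osm, Il6ra, Il6st, Osmr, Lifr and, by a small margin that turned negative with the length and GC trend removed, Stat3), 1 was lower (Socs3) and 1 did not pass (Il11). These counts must be read against a very broad difference between the groups: 66.4% of all tested genes were called, 33.9% as higher and 32.5% as lower. The median log2 fold change was 0.94 over the 10 genes and -0.0042 over all tested genes. In the test against 1.5-fold, which asks whether a change exceeds that size, 6 of the 10 passed, all higher (Il6, Lif, Osm, Il6st, Osmr and Lifr), against 23.7% of all genes. The 2 groups did not overlap in CPM for any of the 10, nor for 82.5% of all genes.

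**Figure D1:**
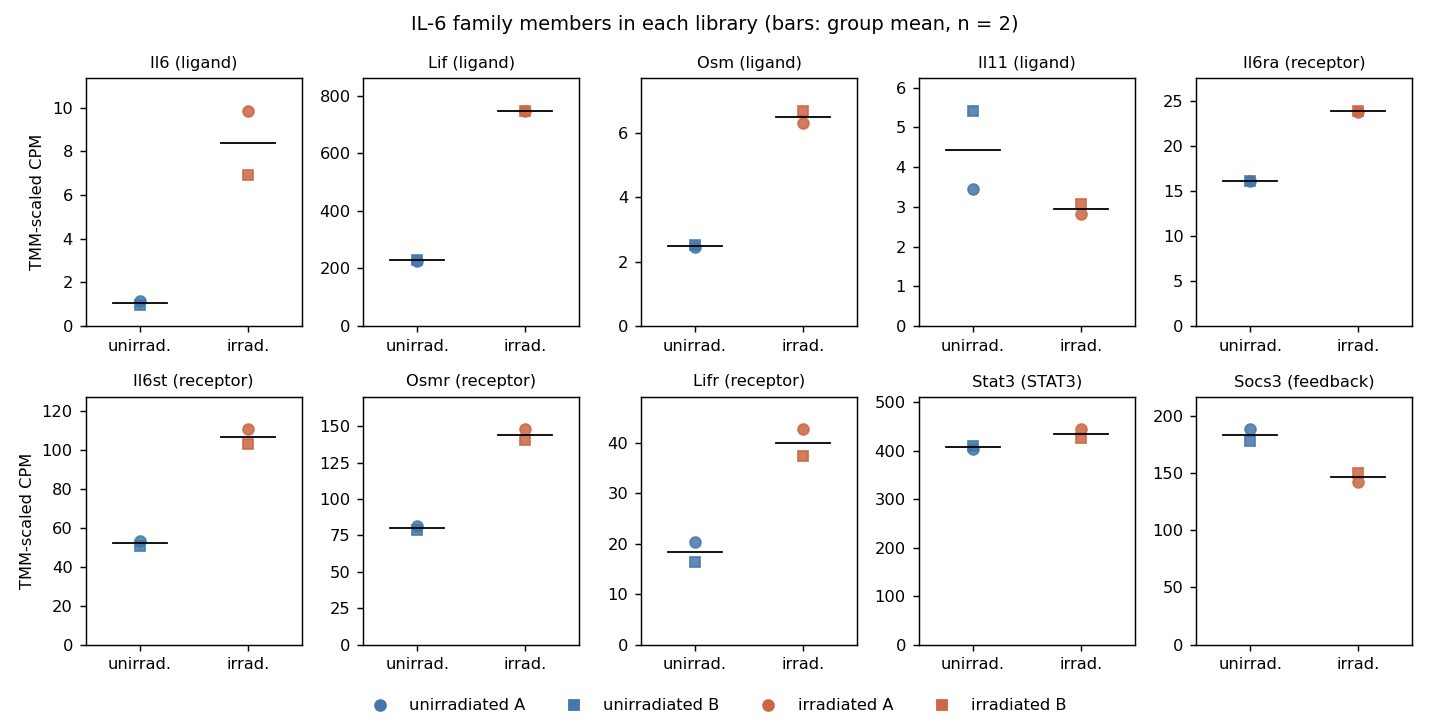
TMM-scaled CPM (vertical axes, each from 0) of the 10 genes in the 2 unirradiated and 2 irradiated libraries; points are libraries and bars group means. Il6, Lif, Osm and the 4 receptor chains sit higher in both irradiated libraries, Stat3 barely moves (407 against 435 CPM), and Il11 and Socs3 sit lower.

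Among the ligands, Lif, encoding leukemia inhibitory factor (chromosome 11, 4257557 to 4272514), was by far the most abundant. Its level was 227 and 230.4 CPM in the unirradiated libraries and 746 and 747 CPM in the irradiated ones. Both irradiated libraries were well above both unirradiated ones, and the spread within a group was very small (SD 2.60 and 1.05 CPM). Lif rose by a log2 fold change of 1.71 (SE 0.0422, adjusted p = 1.08e-43), or 3.27-fold.

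Il6, encoding interleukin 6 (chromosome 5, 30013114 to 30019981), had the largest fold change of the 10 genes from a very low start. It was at 1.13 and 0.971 CPM in the unirradiated libraries, from 19 and 12 counts, and at 9.86 and 6.94 CPM in irradiated A and B, from 164 and 172 counts. The irradiated libraries were both several-fold above the unirradiated ones but differed from each other, as a ratio, more than those of any other of the 8 genes called higher. Il6 had a log2 fold change of 2.93 (SE 0.287, adjusted p = 6.32e-14), which lay between 2.71 and 3.21 over 12 alternatives.

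Osm, encoding oncostatin M, a product of myeloid cells and T cells (chromosome 11, 4236420 to 4241026), was also low. It was at 2.45 and 2.51 CPM in the unirradiated and at 6.31 and 6.70 CPM in the irradiated libraries. The irradiated libraries were close together and above both others (log2 fold change 1.40, SE 0.235, adjusted p = 4.83e-07). The macrophage sum was higher in the same libraries and the T and NK cell and neutrophil sums lower, and their part in the Osm result was not tested.

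Il11, encoding interleukin 11, a ligand also made by fibroblasts (chromosome 7, 4772373 to 4782857), did not follow the other ligands. Its level was 3.46 CPM in unirradiated A, 5.42 CPM in unirradiated B, and the irradiated libraries were at 2.83 and 3.07 CPM. The unirradiated libraries differed more from each other than irradiated B did from unirradiated A. Its log2 fold change of -0.53 (SE 0.251) missed the threshold (adjusted p = 0.0563), and adjusted p ran from 0.00622 to 0.541 over 12 alternatives. It was -0.87 without unirradiated A, where it passed, and -0.22 without unirradiated B.

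Set on a scale that allows genes to be compared, CPM per kilobase of gene length, the pool of these 4 ligands was nearly all Lif. Other ligands of the family, such as Ctf1 and Clcf1, are outside this pool. Lif was at 52.5 ± 0.597 CPM per kb in the unirradiated and 172 ± 0.240 CPM per kb in the irradiated group. It made up 94.1% and 92.7% of the sum of the 4 ligands in the unirradiated libraries and 95.4% and 95.9% in the irradiated ones. The share of Il6 was 0.843% and 0.699% against 2.26% and 1.60%, and that of Il11 3.10% and 4.71% against 0.782% and 0.851%. The share of Il6 was thus higher and that of Il11 lower in both irradiated libraries. That of Osm was 1.94% and 1.93% against 1.55% and 1.65%. Per kb, Lif was 112 and 132 times as high as Il6 in the unirradiated libraries, and 42.2 and 60.1 times in the irradiated ones.

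**Figure D2:**
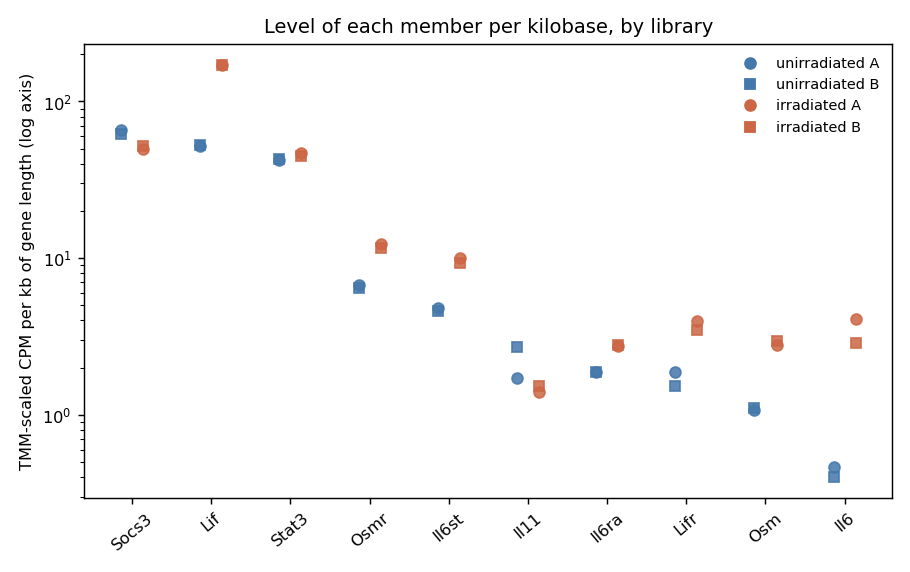
CPM per kilobase of gene length (log axis) for the 10 genes, ordered by their unirradiated mean; circles are libraries A and squares libraries B. Socs3, Lif and Stat3 form the upper end in both groups, and Lif moves from 52.5 to 172 CPM per kb, above both others.

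All 4 receptor chains were higher in the irradiated libraries. Il6st, encoding the signalling chain that every ligand here uses (chromosome 13, 112464070 to 112510086), was at 53.1 and 50.8 CPM in the unirradiated and at 110.6 and 103 CPM in the irradiated libraries. The irradiated values were about double the unirradiated ones in both libraries, as the fitted fold of 2.05 shows (log2 fold change 1.03, SE 0.0635, adjusted p = 1.35e-22).

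Lifr, encoding the LIF receptor chain (chromosome 15, 7090614 to 7197489), was at 20.3 and 16.3 CPM against 42.6 and 37.2 CPM. In both groups library A was above library B, by less than the gap between the groups (SE 0.0980 on a log2 fold change of 1.09, adjusted p = 1.99e-15). Osmr, encoding the oncostatin M receptor chain (chromosome 15, 6813577 to 6874969), was at 81.2 and 78.6 CPM against 148 and 141 CPM. Both irradiated libraries were clearly above both unirradiated ones (SE 0.0562 on a log2 fold change of 0.85, adjusted p = 4.20e-21).

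Il6ra, encoding the chain that gives IL-6 its specificity (chromosome 3, 89864059 to 89913196), changed least of the receptors. It was at 16.2 and 16.1 CPM against 23.9 and 24.0 CPM, with nearly equal libraries within each group. Its log2 fold change was 0.57 (SE 0.107, adjusted p = 5.18e-06), and Il6ra did not pass the test against 1.5-fold (adjusted p = 0.722). An antisense gene, Gm42809, shares 242 of its 8642 exonic bases, and the library kit does not mark strand, so reads there cannot be told apart.

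The receptor chains are encoded by long transcripts, and fold changes in these libraries tended to be larger for long genes. With the trend of fold change on gene length and GC content removed, the log2 fold changes of Il6ra, Il6st, Osmr and Lifr became 0.30, 0.70, 0.49 and 0.74. All 4 calls held there. Those of Il6, Lif and Osm were 2.95, 1.66 and 1.62.

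Per kb, Osmr and Il6st were the leading receptor chains in both groups, at 6.59 ± 0.154 and 4.68 ± 0.146 CPM per kb unirradiated and 11.9 ± 0.430 and 9.62 ± 0.486 CPM per kb irradiated. Il6ra and Lifr were at 1.87 ± 0.00542 and 1.70 ± 0.259 CPM per kb unirradiated, where their libraries overlapped with each other and with those of Il11. In the irradiated group they were at 2.77 ± 0.00753 and 3.71 ± 0.354 CPM per kb and no longer overlapped. The libraries of Il6 there overlapped with those of Lifr and of Osm.

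**Figure D3:**
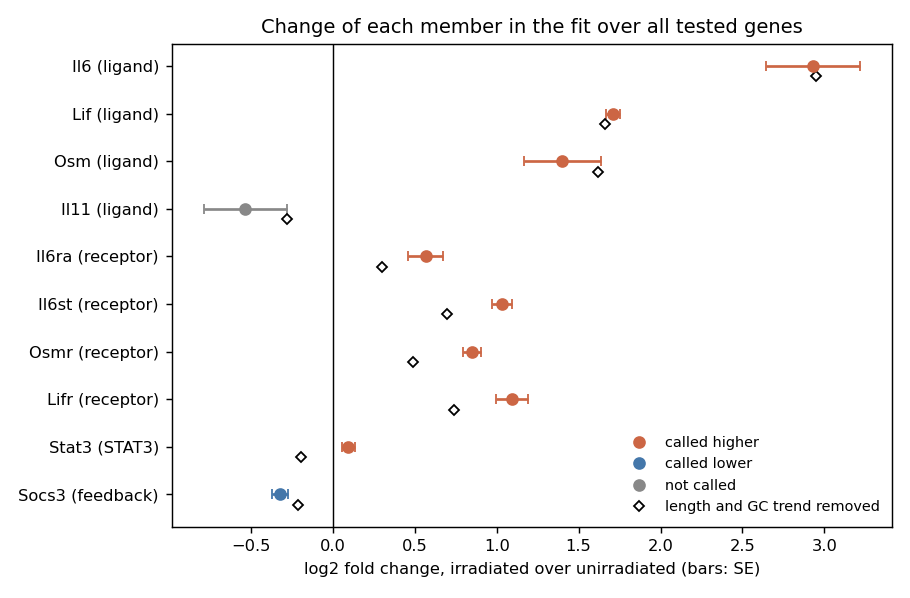
Log2 fold change of irradiated over unirradiated (horizontal axis) with its SE for each gene, coloured by the call; open diamonds give the value with the length and GC trend removed. The 4 receptor chains shift toward 0 but stay above it, Stat3 moves from 0.10 to -0.19, and Socs3 stays below 0.

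Stat3, encoding the transcription factor of the pathway (chromosome 11, 100885098 to 100939540), was abundant and nearly level. It was at 404 and 410 CPM in the unirradiated and at 444 and 425 CPM in the irradiated libraries. The groups did not overlap, but the gap between irradiated B and unirradiated B was smaller than that between the irradiated libraries. Its log2 fold change of 0.10 (SE 0.0417) passed narrowly (adjusted p = 0.0392) and lost its call in 6 of 12 alternatives. With the length and GC trend removed it turned to -0.19 (adjusted p = 5.69e-05), over a range of adjusted p from 5.69e-05 to 0.298, so no direction is given for it. Stat3 shares 72 of 9527 exonic bases with Stat5a on the opposite strand.

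Socs3, the feedback inhibitor (chromosome 11, 117966079 to 117970047), was lower in the irradiated libraries, unlike Il6, Lif, Osm and the receptor chains. Socs3 stood at 189 and 178 CPM in the unirradiated and at 143 and 151 CPM in the irradiated libraries. Both irradiated libraries were below both unirradiated ones, by a modest margin. Socs3 had a log2 fold change of -0.32 (SE 0.0503, adjusted p = 8.92e-08). It lay between -0.37 and -0.21, the latter with the length and GC trend removed, and passed in all 12 alternatives, though not in the test against 1.5-fold. Per kb, Socs3 was the highest of the 10 genes in the unirradiated group (63.5 ± 2.61 CPM per kb) and the second after Lif in the irradiated group (50.8 ± 1.88 CPM per kb).

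The rest of the pathway was described with 6 lists that hold none of the 10 genes and were also chosen with earlier results known. Of their 73 tested genes, 40 were higher and 23 lower, and the log2 fold changes had a median of 0.29. Over all tested genes 33.9% were higher and 32.5% lower, and the count of each list stands against those shares. Genes outside the naming rule that complete a small count were named after their values were seen. Among 7 tested of 12 other ligands and receptors of the family, 1 was higher and 2 were lower (median -0.11). The number lower was 1 without irradiated A and 1 with the length and GC trend removed. Ctf1, encoding cardiotrophin, a ligand of the LIF receptor, rose from 7.20 ± 0.909 to 11.9 ± 1.94 CPM. Il11ra1, encoding the receptor chain of interleukin 11, fell from 43.5 ± 0.808 to 31.8 ± 1.84 CPM (log2 fold change -0.44, adjusted p = 2.33e-06). How counting treated reads that match both Il11ra1 and the near-identical Il11ra2 is not stated. The ligand genes Cntf, Ctf2, Il27 and Il31 and the receptor gene Il31ra had at most 14 counts in a library and were not tested.

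Genes of receptor shedding, which releases soluble IL-6 receptor from the cell surface, were 3 higher and 0 lower of 4 (median 0.44). The metalloproteases Adam10 and Adam17 were both higher, Adam10 at 100.2 ± 1.36 against 156 ± 1.30 CPM and Adam17 at 62.2 ± 2.28 against 87.9 ± 0.955 CPM. The remaining gene, Rhbdf2, had a log2 fold change of 0.07 (adjusted p = 0.213). Rhbdf1, which helps ADAM17 mature, rose from 165 ± 1.33 to 216 ± 0.165 CPM. The log2 fold change of Adam17 of 0.50 was 0.25 with the length and GC trend removed and still passed there.

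Of 11 kinases, STATs and adaptors, 5 were higher and 4 lower (median 0.02), shares not far from those over all tested genes. The kinases Jak1 and Jak2, which sit on the Il6st chain, were higher, Jak1 at 107 ± 1.88 against 171 ± 3.14 CPM and Jak2 at 43.5 ± 3.80 against 60.5 ± 2.43 CPM. Tyk2, the third kinase of these receptors, fell from 55.9 ± 2.63 to 45.9 ± 0.676 CPM. Jak3, a kinase of lymphoid cytokine receptors, fell from 80.6 ± 5.34 to 46.8 ± 3.20 CPM, and Stat5a, a mediator of prolactin signals, from 73.7 ± 3.38 to 45.0 ± 0.217 CPM. The adaptor Gab1 and the phosphatase Ptpn11, which couple the receptors to the MAP kinase pathway, were higher too, Gab1 at 59.9 ± 4.58 against 139.5 ± 5.11 CPM and Ptpn11 at 97.4 ± 4.47 against 165 ± 0.531 CPM. The fifth higher gene was the adaptor Shc1 (log2 fold change 0.39). With the length and GC trend removed, the log2 fold changes of Jak1 and Jak2 fell from 0.67 and 0.46 to 0.43 and 0.30, and that of Tyk2 went from -0.28 to -0.49, all still past the threshold.

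Among 15 other negative regulators, 10 were higher and 3 lower (median 0.23). Socs1, which blocks JAK kinases directly, fell from 22.4 ± 0.568 to 7.66 ± 0.563 CPM, a change of -1.56 on the log2 scale (SE 0.128, adjusted p = 6.25e-17). Socs5, another member of the SOCS family, rose from 39.6 ± 2.62 to 116 ± 0.118 CPM, and Cish, the inhibitor induced by STAT5, rose by 0.77 on the log2 scale. The other lower genes were Ptpn6, a phosphatase of blood cells (-0.59), and Pias4 (-0.27). Cbl, a ubiquitin ligase of activated receptors, rose from 38.6 ± 1.41 to 60.3 ± 7.71 CPM, and its log2 fold change of 0.63 became 0.27 with the length and GC trend removed. Under that setting the list had 7 higher and 5 lower genes and a median of 0.04.

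Of 20 transcription and survival genes known as targets of STAT3, 7 were higher and 12 lower (median -0.20). The number lower was 10 with the length and GC trend removed (median -0.16) and 10 with no filter (median -0.14). Cebpd, a transcription factor of the acute-phase response, rose from 143 ± 4.29 to 290.2 ± 21.4 CPM and Ccnd1, encoding cyclin D1, from 83.1 ± 5.21 to 235 ± 9.22 CPM. Klf4, a transcription factor of epithelial differentiation, fell from 647 ± 5.07 to 223 ± 4.05 CPM, the immediate early gene Fos from 4278 ± 9.92 to 2316 ± 44.9 CPM and Bcl3, an NF-kB cofactor, from 91.6 ± 1.23 to 61.9 ± 0.0200 CPM. Myc was at 154 ± 0.794 and 138 ± 3.61 CPM, and its call as lower was lost in 4 of 12 alternatives, among them without unirradiated A (-0.15) and without irradiated A (-0.12). It was -0.02 with the length and GC trend removed, where adjusted p was 0.787 over a range from 6.51e-04.

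Acute-phase genes, mostly for secreted defence proteins that IL-6 induces in liver and epithelium, were mostly higher, with 14 higher and 2 lower of 16 tested (median 1.38). The lower genes were Lrg1 (log2 fold change -0.35) and Serpina3g (-0.79). The number higher was 13 with upper-quartile scaling, 12 by DESeq2 and 14 with the length and GC trend removed. With the stricter filter, 12 of 15 tested were higher. The number lower was 1 without each single library in turn, 1 by DESeq2 and 0 with the length and GC trend removed. Hp, encoding haptoglobin, rose from 7.40 and 8.82 to 102 and 108 CPM, by 3.71 on the log2 scale (SE 0.0934, adjusted p = 2.69e-43). Saa2, a serum amyloid A gene with near-identical copies, rose from 27.9 ± 1.81 to 142 ± 9.43 CPM, and the protease inhibitor gene Serpina3n, also one of a cluster of related copies, from 3.38 ± 1.12 to 18.0 ± 0.0751 CPM. Fgb, a fibrinogen chain, went from 14 to 753 counts per group, a scaled ratio of 37.8 with a 95% exact binomial interval of 22.4 to 69.5 that covers counting error only. Its fitted log2 fold change of 5.22 was 6.75 without unirradiated A and 4.66 without unirradiated B, so the size of the fold depends on which unirradiated library is kept. The 7 list members that were not tested had at most 8 counts in a library. The list contains Cd14, which macrophages also express, and the macrophage sum was higher in the same libraries.

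**Figure D4:**
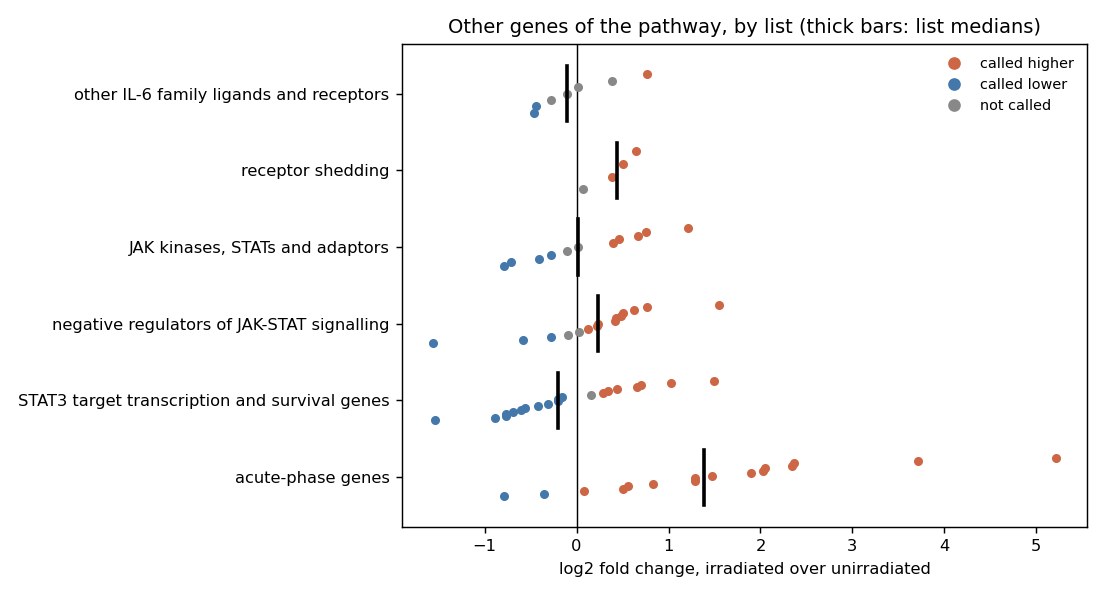
Log2 fold change of irradiated over unirradiated (horizontal axis) of the 73 tested genes in the 6 pathway lists; points are genes coloured by their call and thick bars are list medians. The acute-phase genes lie mostly to the right (median 1.38), while the transcription and survival targets spread to both sides with a median of -0.20.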

How the data were processed

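RNA was sequenced from 2 unirradiated and 2 irradiated tumour preparations, grouped by the treatment labels. The deposited files hold the authors' raw read counts per gene with coordinates and a gene length. The submitters' processing notes list STAR 2.5, HTSeq 0.6.1, DESeq2 and the mm10 build. Their settings and the annotation were not given in the sources used here. Per the labels' protocols, libraries were poly(A)-selected by a kit that is not directional. Coordinates of 9 of the 10 genes were identical in GENCODE M21 on GRCm38. Total counts of 13011489 to 23763830 make 1 count worth 0.0403 to 0.0809 TMM-scaled CPM.

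Counts were tested with edgeR 4.0.16 in R 4.3.3 (filterByExpr, TMM, quasi-likelihood F-test with 2 residual and 59.8 prior degrees of freedom, Benjamini-Hochberg over 15961 genes, threshold 0.05), and the code was tested on simulated data. Standard errors were derived from the log2 fold change and its F statistic. The alternatives comprised upper-quartile and RLE scaling, edgeR's legacy dispersion, DESeq2 1.42.0, no filter (at least 1 count), a stricter filter (at least 1 CPM in 2 libraries), a block for the replicate letter, subtraction of the fold-change trend on length and GC (of the longest GENCODE transcript, available for 15945 tested genes), leaving out each library, a threshold of 0.1 and a test against 1.5-fold. With 1 library left in a group, it is assumed to vary like the other group's. The 10 genes and all lists were chosen with earlier results of these data known. From each pathway list, up to 4 called genes with the largest change and a mean of at least 1 CPM are named, with 11 genes fixed by name. Some genes that enter the list counts are not reported here by name. Within groups, the median chi-square per gene was 2.11 (unirradiated) and 2.14 (irradiated) times that of counting noise, so no pair was treated as 1 library deposited in duplicate. This does not show that A and B were separate animals. No batch is labelled, and any batch aligned with the groups and irradiation cannot be told apart.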

Additional observations from a re-analysis of the deposited data

How the results depend on the processing

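Directions and calls of Il6, Lif, Osm, Il6ra, Il6st, Osmr, Lifr and Socs3 held in all 12 alternatives. These 12 do not include the threshold of 0.1 or the test against 1.5-fold. Of these genes, Il6ra and Socs3 did not pass the test against 1.5-fold. Stat3 and Il11 sat at the threshold of 0.05. The log2 fold change of Stat3 was no longer past it with upper-quartile scaling (0.0507), DESeq2 (0.0942), the stricter filter (0.0776) and 3 of the single-library omissions (0.0788 to 0.139 over all 4), and it was -0.19 with the length and GC trend removed. The log2 fold change of Il11 passed with upper-quartile scaling (-0.58), the stricter filter (-0.55), the replicate block (-0.60) and without unirradiated A (-0.87 to -0.22 over the 4 omissions). The number of members called lower was therefore 2 in place of 1 with upper-quartile scaling, the stricter filter, the replicate block, the trend removed and a threshold of 0.1, 0 against 1.5-fold, and 1 to 2 over the omissions. Against 1.5-fold, 2033 genes were higher and 1753 lower. The replicate letters are not stated to pair libraries, and the A minus B differences of both groups correlated at r = 0.01 over 15961 genes. The block changed no other call of the 10 genes. Removing the length and GC trend moved the split of all calls from 5409 higher and 5185 lower to 4719 and 5328, and no scaling moved the median of all genes by over 0.1 on the log2 scale. Among the other genes reported under the naming rule, only Myc lost its call in any of the 12 alternatives. Il6 rested on 31 unirradiated counts, so its fold is the least precise of the 10, and Il11 on 125 and 123 counts. With 2 libraries per group, a call weighs the group difference against a spread between these libraries that is largely pooled over genes.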
